A study of Mus musculus with 18 samples.

Results

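The mitochondrial ribosome is built from the products of nuclear genes whose symbols begin with Mrpl (large subunit) or Mrps (small subunit). Members were all genes in the count files whose mouse symbol begins with Mrpl or Mrps followed by a number, also where a letter follows it (Mrps18a, Mrps18b and Mrps18c). Mrps34 was left out because it lies close to the targeted gene Rps2. The rule found 76 of the 22524 genes listed, of which 48 were Mrpl and 28 were Mrps genes. All 76 passed the filter on low counts that left 13353 genes for testing. Mrpl33, which also belongs to the family, was not matched among the identifiers used here.

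The study profiled liver RNA from female C57BL/6 mice at 15 months of age. The A226Y group (10 mice) was heterozygous for Rps2-A226Y, a knock-in allele of the cytosolic ribosomal protein gene Rps2 that lowers the accuracy of decoding on the cytosolic ribosome. The WT group (8 mice) was wild-type for Rps2 and expressed Cre recombinase. The A226Y line came from a cross with CMV-Cre deleter mice, in which the CMV promoter drives Cre in all tissues. The mutant allele was made in 129/Sv embryonic stem cells and backcrossed to C57BL/6. Its transcription depends on Cre removing a loxP-flanked STOP cassette. Removal was partial in the animals of this line, which were mosaic, and a cell that keeps the cassette is haploinsufficient for Rps2. Each library came from the whole liver tissue of 1 mouse, in which fewer cells of a type and less RNA per cell cannot be told apart.

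Mitochondria keep a small genome whose protein products are all core subunits of the respiratory chain and ATP synthase. These few proteins are made inside the organelle by the mitochondrial ribosome, whose RNA is transcribed from mitochondrial DNA while every one of its proteins is encoded in the nucleus, made on cytosolic ribosomes and imported. Many of the proteins have bacterial counterparts, and others were added during the evolution of mitochondria. Liver depends on respiration for gluconeogenesis, urea synthesis and fatty acid oxidation, and inherited defects of several of these genes affect the liver, heart or brain.

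Total counts ranged from 23850565 to 62126131 per mouse, with a median of 32018677. A226Y mouse 23 had the highest total. WT mouse 33 had the lowest TMM scaling factor (0.894) and the largest share of counts in a single gene (12.9%), and A226Y mouse 29 had the smallest such share (5.1%). Levels are given as CPM, which are counts scaled to the TMM-corrected library total. Rps2 itself averaged 68.6 ± 13.3 CPM in the A226Y group (SD, n = 10). The WT average was 114 ± 13 CPM (SD, n = 8), and every A226Y mouse was below every WT mouse. Summed hepatocyte markers ranged from 87000 to 157800 CPM in A226Y and from 95380 to 185800 CPM in WT mice. Of the 10 markers 2 were called higher and 1 lower, beside 7.27% and 7.03% of all genes tested, and 0 were at 0 in all libraries. Summed Kupffer cell markers ranged from 278.5 to 1083 CPM in A226Y and from 415.6 to 841 CPM in WT mice, with medians of 377 and 604 CPM. Of the 8 Kupffer markers 1 was called lower, and their median log2 fold change was -0.43. Of 6 tested cholangiocyte markers 1 was called lower (median 0.20), and of 5 erythroid markers 0 were called (median -0.45). Of 8 stellate cell markers 3 were called lower, beside 7.03% of all genes tested, while their summed level had a median of 448 CPM in A226Y and 408.5 CPM in WT mice and their median log2 fold change was -0.08. Of 10 leukocyte markers 0 were called, and their log2 fold changes had a median of -0.31. Their summed level was 94.4 CPM (median, highest 301) in A226Y and 82.0 CPM (median, highest 774) in WT mice. The part of these cell types in the values below was not tested.

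Levels of the members spanned a wide range and were of the same order in both genotypes. Mean CPM over the 18 mice ran from 0.496 for Mrpl23 to 132 for Mrpl12, with a median of 27.9 CPM, and 73 of 76 members reached 10 CPM. Per kilobase of the principal transcript, Mrpl genes had a median of 21.8 CPM per kb and Mrps genes one of 17 CPM per kb. Mrpl12, whose product forms the stalk that recruits translation factors and also binds the mitochondrial RNA polymerase, stood at 100.3 CPM per kb, the highest of the 76. Mrpl14 followed at 86.7 CPM per kb and Mrpl52 at 85.6 CPM per kb. Mrps24, Mrps12 and Mrps21 were the highest of the Mrps genes, with 56.9, 48.1 and 45.0 CPM per kb.

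The lowest levels per kilobase belonged to Mrpl23 with 0.717 CPM per kb and Mrps36 with 1.77 CPM per kb, followed by Mrpl19 with 2.89 CPM per kb and Mrps33 with 3.13 CPM per kb. Mrpl19 averaged 14.5 CPM in A226Y and 14.3 CPM in WT mice. Its place in this order rests on a principal transcript annotated with 5000 bases. Mrpl23 and Mrps36 have annotated pseudogene copies in the mouse genome, so their levels are uncertain where reads fit more than 1 place. Mrps36 is moreover a protein of the 2-oxoglutarate dehydrogenase complex that carries a ribosomal name. The mean of Mrps36 was 1.23 ± 0.239 CPM in A226Y mice (SD, n = 10), beside 1.26 ± 0.222 CPM for WT (SD, n = 8). Mrpl23 had a log2 fold change of -0.35 with a 95% interval of -0.70 to 0.01 and an adjusted p of 0.185 by edgeR.

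The comparison of A226Y with WT asked whether mice with an error-prone cytosolic ribosome changed transcripts of the second ribosome of the cell. Of the 76 members, 2 were lower and 0 were higher in A226Y mice by edgeR's quasi-likelihood test with Benjamini-Hochberg adjustment over all tested genes. The called genes were Mrpl14 and Mrps21. Over all genes tested, 7.03% were called lower and 7.27% were called higher, beside 2.63% and 0% of the members. At an unadjusted p under 0.05, 13 members (17.1%) were lower and 1 (1.32%) was higher, beside 14.7% and 14.9% of all genes. These unadjusted counts moved with the scaling and with single mice. With library size only, 3 members were lower and 5 higher, and with a mouse left out the number lower ran from 6 (without WT mouse 24) to 18 (without WT mouse 33) and the number higher from 0 to 3. At an adjusted p under 0.05, library size only called 1 member lower and 0 higher, beside 660 lower and 1399 higher of all 13353 genes tested. DESeq2 called 3 members lower and 0 higher, beside 1171 and 1247 of all genes. With limma-voom, 1 was called lower and 0 higher, beside 918 and 953 of all genes.

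**Figure D1:**
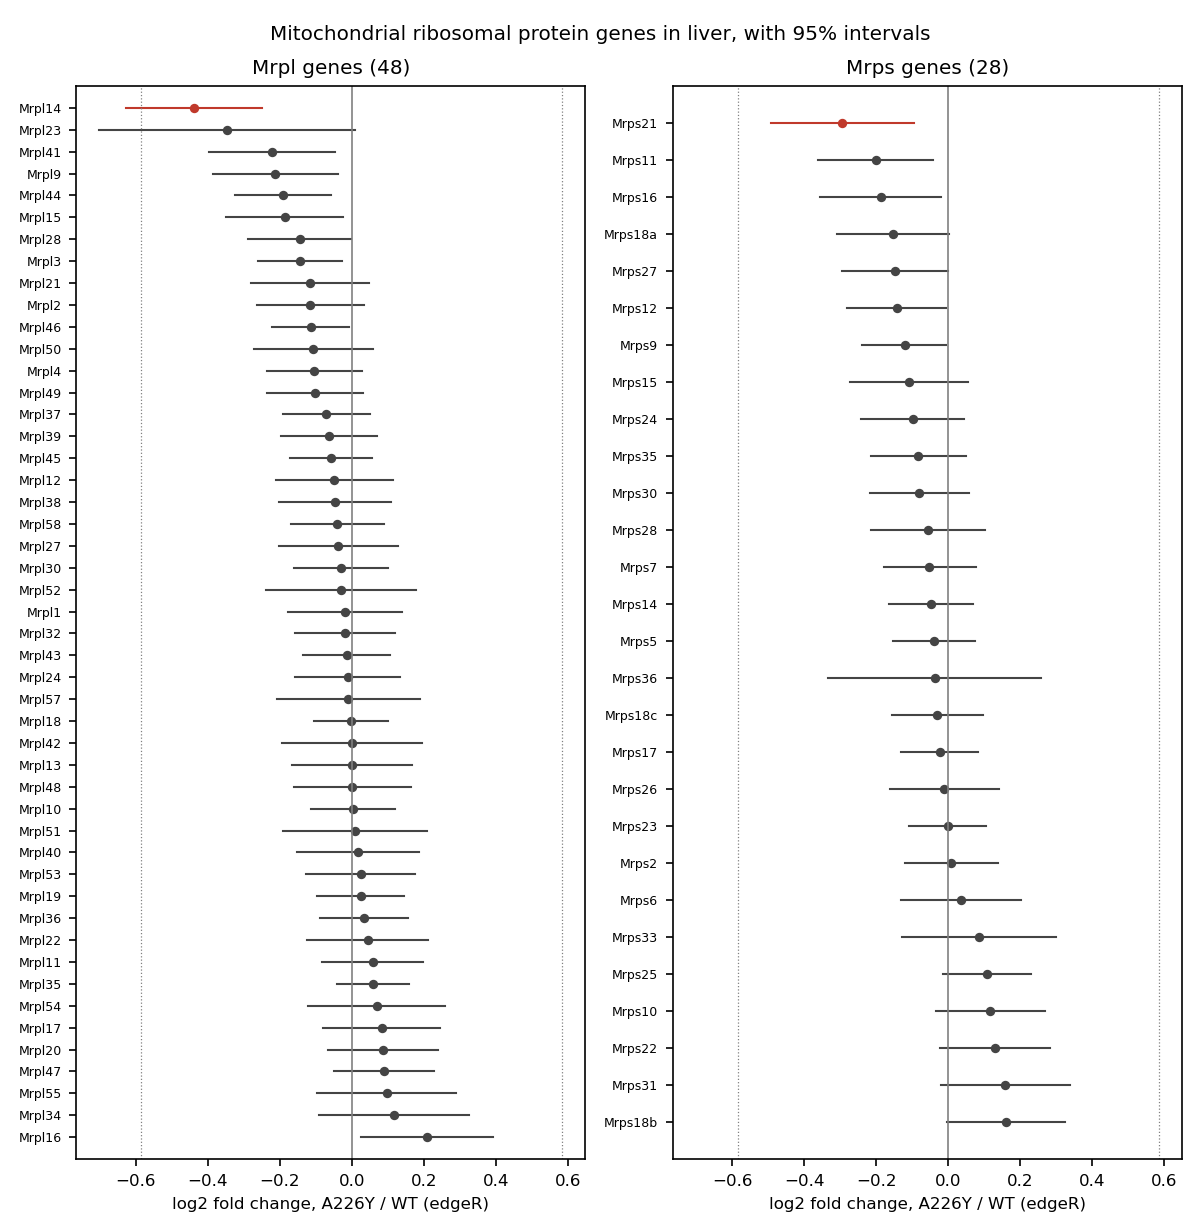
Log2 fold change of each of the 48 Mrpl genes (left) and 28 Mrps genes (right) on the horizontal axis, A226Y over WT, with points for edgeR estimates and lines for 95% intervals. Red marks the 2 members called at an adjusted p under 0.05, Mrpl14 and Mrps21, and dotted lines mark a 1.5-fold difference in either direction.

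Most members were measured tightly enough to bound their difference. The 95% interval lay within a 1.5-fold difference in either direction for 74 of 76 members, compared with 10069 of the 13353 genes tested. Log2 fold changes ran from -0.44 for Mrpl14 to 0.21 for Mrpl16, and 47 members were within 0.1 of 0. Their median was -0.03, beside -0.004 over all genes, and 50 of 76 members had a value below 0 (65.8%, against 51.0% of all genes). The sign of the median rested on the scaling: it was 0.01 with library size only, under which the median of all genes was 0.04, and 0.00 with an offset for transcript length. The spread between mice of one genotype, as the SD of log2 CPM, had a median of 0.155 over members and 0.208 over all genes. Members also had a higher median level, 27.9 CPM beside 14.6 CPM over all genes. The part of level in the spread and in the interval widths was not tested.

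Mrpl14, on chr17:45686322-45698495 (GRCm38, plus strand), encodes uL14m, a protein of the subunit interface of the large subunit to which the assembly factor Malsu1 binds. In the 10 A226Y mice its level had a lowest value of 36.5, a median of 47.8 and a highest value of 57.2 CPM. In the 8 WT mice the corresponding values were 46.2, 64.5 and 83.1 CPM. All A226Y mice lay below the WT mean, and 7 of 8 WT mice lay above every A226Y mouse, so that the groups overlapped through 1 WT animal. The log2 fold change was -0.44 ± 0.09 (SE), with an adjusted p of 0.00487 by edgeR. An exact two-sided permutation test, which compared mean log2 CPM across each of the 43758 possible divisions into 10 and 8 mice, gave p = 0.000686, or 0.0148 after adjustment over all genes tested.

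Mrpl14 was called lower under each of the 11 other settings tried and with each of the 18 mice left out in turn. Its log2 fold change ranged from -0.50 to -0.35 over these, and adjusted p ranged from 0.000349 with DESeq2 to 0.0444 with 4 surrogate variables. Its principal transcript has 645 bases. Over the exons of all its annotated transcripts, 106 bases are shared with exons of Tmem63b on the opposite strand. Tmem63b averaged 88.2 ± 12.2 CPM in A226Y (n = 10) and 92.1 ± 10.6 CPM in WT (n = 8), with a log2 fold change of -0.06 and an adjusted p of 0.692 by edgeR. Malsu1 had a log2 fold change of 0.03 with an adjusted p of 0.877 by edgeR.

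**Figure D2:**
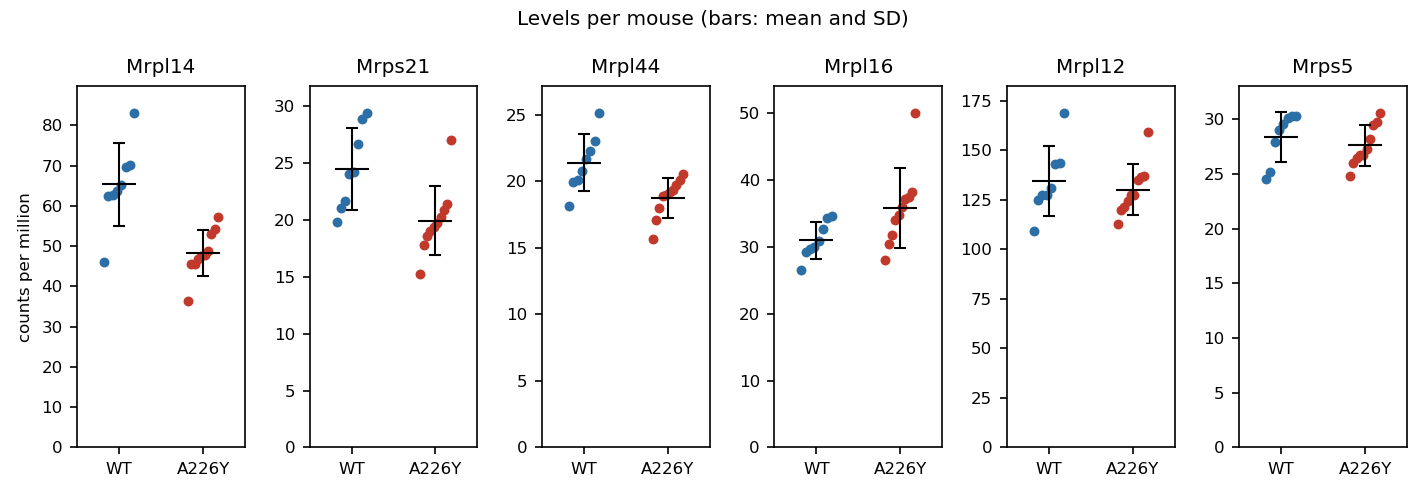
CPM (vertical axes, from 0) of 6 members in each WT mouse (blue, n = 8) and each A226Y mouse (red, n = 10), with black bars for the mean and SD. Mrpl14 shows the widest separation, with 7 of 8 WT mice above all A226Y mice, whereas the points of Mrpl12 and Mrps5 span the same range in both groups.

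Mrps21, on chr3:95862634-95871519 (minus strand), encodes bS21m of the platform of the small subunit. Its level ran from 15.2 through a median of 19.5 to 27.0 CPM in A226Y and from 19.8 through 24.1 to 29.4 CPM in WT mice. Of the A226Y mice, 6 were below all WT mice, while the highest A226Y value lay well inside the WT range. The log2 fold change was -0.29 ± 0.10 (SE) with an adjusted p of 0.0444 by edgeR. The exact two-sided permutation p was 0.00999, or 0.0632 after adjustment over all genes tested. The call held under 5 of the 11 other settings. It was lost with library size only (adjusted p of 0.0721), with no filter beyond 1 count (0.0593), with limma-voom (0.0501), with the length offset (0.0686), with the GC offset (0.0887) and with 4 surrogate variables (0.208). With single mice left out, it held without WT mouse 4, 6 or 33 or A226Y mouse 15 or 23 (adjusted p from 0.0104 to 0.0487 by edgeR) and was lost without any one of the other 13 mice, up to an adjusted p of 0.0921 without WT mouse 14.

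Mrpl44, which encodes a large-subunit protein with a fold of the RNase III family, lay just past the threshold, with an adjusted p of 0.05002 by edgeR, and was not called. It was described after its value was seen. Its level ran from 15.6 through a median of 19.1 to 20.6 CPM in A226Y and from 18.1 through 21.2 to 25.2 CPM in WT mice, and its log2 fold change was -0.19 ± 0.06 (SE). All 10 A226Y mice were below the WT mean. The exact two-sided permutation p was 0.00624, or 0.0489 after adjustment over all genes tested. It was called with DESeq2 (adjusted p of 0.0413), with upper-quartile scaling (0.0465) and with 10 counts asked of every mouse (0.0477). It was not called under the other 8 settings, among them library size only (0.153), the length offset (0.217) and 4 surrogate variables (0.571). Of its exon bases, 126 are shared with Wdfy1 on the opposite strand.

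How many members were called depended on single mice. Without WT mouse 33, which had the lowest summed level of both families, 7 members were called lower: Mrpl14, Mrpl15, Mrpl41, Mrpl44, Mrps11, Mrps18a and Mrps21. In that fit 866 of all 13311 genes tested were called lower. Without WT mouse 6, 4 were called lower (Mrpl3, Mrpl14, Mrpl44 and Mrps21), beside 1236 of 13338 genes. Without A226Y mouse 23, the most deeply sequenced, 4 were lower (Mrpl14, Mrpl28, Mrps21 and Mrps27) and Mrps18b was higher, beside 894 lower and 901 higher of 13304 genes. Mrpl14 was the only member called lower without any one of A226Y mice 3, 7, 18, 22, 29 or 32 or of WT mice 13, 14, 21, 24 or 28, and without A226Y mouse 29 Mrpl16 was also called higher. Leaving out A226Y mice 23 and 29 and WT mouse 33 together, a choice made after the data were seen, gave 7 lower and 0 higher, beside 1185 lower and 1106 higher of 13276 genes.

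By role, the catalytic centre of the large subunit held the single member that was higher at an unadjusted p under 0.05. Mrpl16 encodes uL16m, which contacts tRNA close to the peptidyl transferase centre. It ran from 27.97 through a median of 35.3 to 50.03 CPM in A226Y and from 26.5 through 30.4 to 34.7 CPM in WT mice, and 6 of 10 A226Y mice were above all WT mice. Its log2 fold change was 0.21 ± 0.09 (SE), with an adjusted p of 0.114 by edgeR. Mrpl3, in which mutations cause cardiomyopathy, had a log2 fold change of -0.14 (adjusted p of 0.0866 by edgeR). Mrpl2 and Mrpl27 had -0.12 and -0.04, with adjusted p-values of 0.289 and 0.80 by edgeR.

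The stalk genes Mrpl10, Mrpl11 and Mrpl12 had log2 fold changes of 0.00, 0.06 and -0.05, and none passed the test. Mrpl12, the most abundant member, ran from 113 through a median of 127 to 159 CPM in A226Y and from 109 through 129 to 169 CPM in WT mice, so that the groups shared nearly their whole range. The 95% interval of its log2 fold change was -0.21 to 0.11. The 6 genes of the exit tunnel and membrane anchor had a median of -0.03, and none was called. The 6 genes of the central protuberance, among them Mrpl58, a peptidyl-tRNA hydrolase that rescues stalled ribosomes, ran from -0.11 (Mrpl46) to 0.02 (Mrpl40), and none was called.

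On the small subunit, Mrps5 is the mitochondrial counterpart of Rps2 itself, since both proteins belong to the uS5 family, whose mutations can lower the accuracy of decoding. It was chosen for that relation and not by the rule for named genes. Mrps5 ran from 24.8 through a median of 27.0 to 30.6 CPM in A226Y and from 24.6 through 29.3 to 30.3 CPM in WT mice. The ranges coincided, and the log2 fold change was -0.04 with a 95% interval of -0.15 to 0.08 and an adjusted p of 0.672 by edgeR. Mrps12, the counterpart of the other accuracy protein uS12, had a log2 fold change of -0.14 with an adjusted p of 0.154 by edgeR.

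Among 7 genes of the platform and body of the small subunit, Mrps21 was called lower, and Mrps11 and Mrps16 were lower only at an unadjusted p under 0.05. Over all genes tested, 7.03% were called lower and 14.7% were lower at an unadjusted p under 0.05, and this grouping was chosen with the values known. Mrps11 averaged 11.7 ± 1.36 CPM in A226Y (n = 10) and 13.4 ± 1.33 CPM in WT (n = 8), with a log2 fold change of -0.20 and an adjusted p of 0.0805 by edgeR. Mrps16 had -0.19 (adjusted p of 0.121 by edgeR). The median of these 7 genes was -0.11, and that of 6 genes of the head was -0.05, with none of the latter called. The largest positive value among Mrps genes was 0.16 for Mrps18b, with an adjusted p of 0.179 by edgeR, followed by 0.16 for Mrps31 with one of 0.22.

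The families were next set side by side, without a test of their difference. The Mrpl genes had a median log2 fold change of -0.02, with 30 of 48 below 0, 1 called lower and 8 lower at an unadjusted p under 0.05. The Mrps genes had a median of -0.04, with 20 of 28 below 0, 1 called lower and 5 lower at an unadjusted p under 0.05. As shares, 2.08% of Mrpl and 3.57% of Mrps genes were called lower, beside 7.03% of all genes tested, and 16.7% and 17.9% were lower at an unadjusted p under 0.05, beside 14.7%. Mrps30 and Mrps18a carry small-subunit names but sit in the large subunit, and with them counted there the medians were -0.02 for the large and -0.04 for the small subunit. Mrps30 had a log2 fold change of -0.08 and Mrps18a one of -0.15, and neither passed the test. With library size only, the median of the Mrpl genes changed sign to 0.02 and that of the Mrps genes was -0.00.

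Summed over the Mrpl genes, A226Y mice ran from 1493 through a median of 1707 to 1843 CPM and WT mice from 1468 through 1750 to 1892 CPM. Summed over the Mrps genes, they ran from 673 through 722 to 755 CPM and from 638 through 739 to 795 CPM, respectively. The ranges of the groups overlapped almost fully for both sums. The ratio of the Mrpl to the Mrps sum averaged 2.34 ± 0.065 in A226Y (SD, n = 10) and 2.34 ± 0.0485 in WT mice (SD, n = 8). In 13 of 18 mice the medians of the 2 families deviated from the mean of all mice in the same direction.

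**Figure D3:**
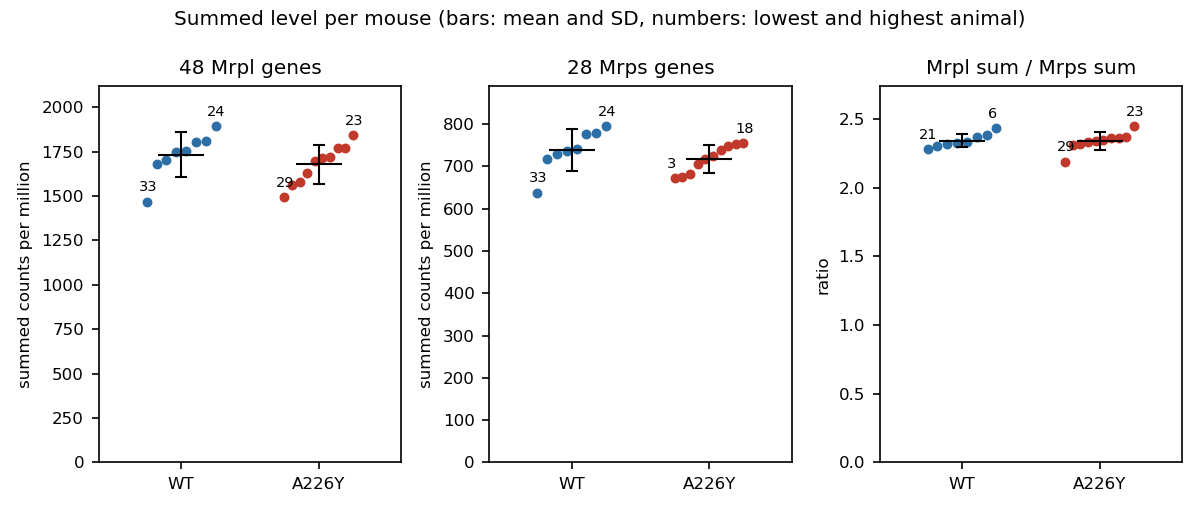
Summed CPM of the 48 Mrpl genes (left) and 28 Mrps genes (middle), and their ratio (right), in each WT (blue, n = 8) and A226Y mouse (red, n = 10), with black bars for the mean and SD and the animal number at the lowest and highest mouse. WT mouse 33 is the lowest of all in both sums, at 1468 and 638 CPM, and the ratio averages 2.34 in both groups.

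**Figure D4:**
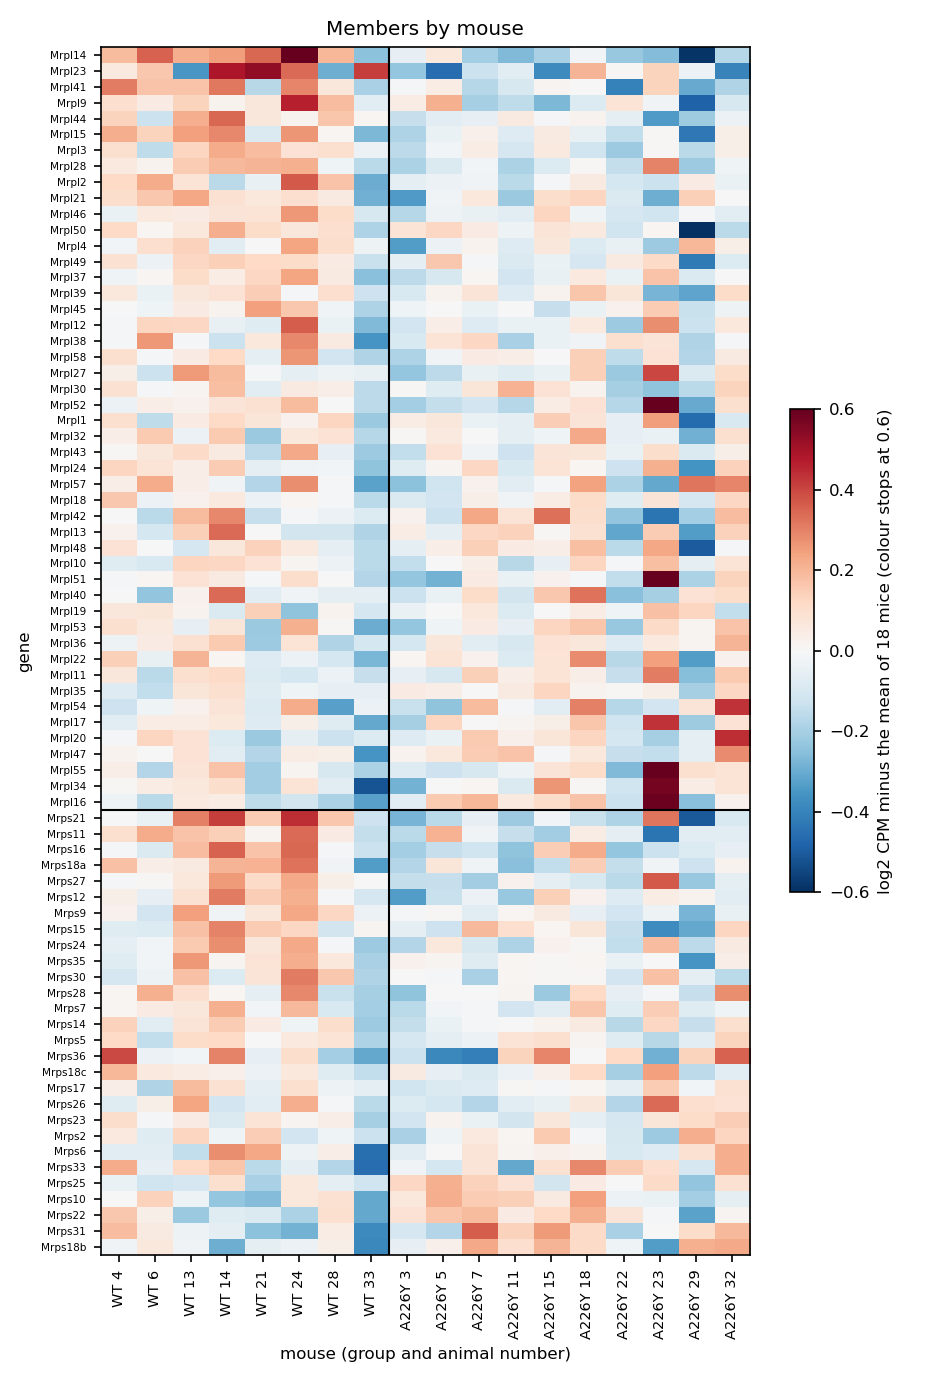
Log2 CPM of each member in each mouse minus the mean of the 18 mice (colour, blue below and red above), with WT mice left and A226Y mice right of the vertical line and Mrpl genes above and Mrps genes below the horizontal line, each ordered by log2 fold change. WT mouse 33 is blue over most members, and A226Y mouse 23 holds both strongly red and strongly blue genes.

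Members with and without a bacterial counterpart were compared next. A counterpart was read from the prefix u or b in the uniform ribosomal protein nomenclature. The rest, among them Mrps18a, Mrps18b and Mrps36, were counted as mitochondria-specific. The split is thus one of names and was not checked against sequence. Of the 45 with a counterpart, 2 were called lower (Mrpl14 and Mrps21), and 10 were lower and 1 was higher at an unadjusted p under 0.05. Of the 31 mitochondria-specific members, 0 were called, and 3 were lower and 0 higher at an unadjusted p under 0.05. The shares called lower were 4.44% and 0%, beside 7.03% of all genes tested, and those lower at an unadjusted p under 0.05 were 22.2% and 9.68%, beside 14.7%. Both sets had a median of -0.03. The 16 Mrps genes with a counterpart had a median of -0.05 with 13 below 0, and the 12 Mrps genes without one had a median of -0.01 with 7 below 0. The difference between these sets was not tested.

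Transcript length and base composition were set beside the calls, and their part in them was not tested. Both called members were among the 38 shorter and the 38 GC-richer members. The GC-richer members had a median log2 fold change of -0.05 and 9 lower at an unadjusted p under 0.05, compared with -0.02 and 4 for the GC-poorer members. These are 23.7% and 10.5% of the members in each set, beside 14.7% of all genes tested. With an offset for length, Mrpl14 was called lower and Mrpl16 higher, beside 793 lower and 788 higher of all 13353 genes in that fit. At an unadjusted p under 0.05, 9 members were higher and 4 lower with this offset. In the fit without the offset, these shares were 14.9% and 14.7% of all genes. With an offset for GC content, Mrpl14 and Mrpl3 were called lower and no member higher, beside 803 lower and 826 higher of all genes in that fit.

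Chromosome 17 carries Rps2 and 7 members. By distance from Rps2 these were Mrpl28 at 1.41 Mb (log2 fold change -0.14), Mrps18b at 11.2 Mb (0.16), Mrpl18 at 11.8 Mb (-0.00), Mrpl14 at 20.97 Mb (-0.44), Mrps18a at 21.4 Mb (-0.15), Mrpl2 at 21.9 Mb (-0.12) and Mrps10 at 22.7 Mb (0.12). Mrpl14 was the only one called, and its neighbours within 1 Mb, Mrps18a and Mrpl2, were not. Of the 648 tested genes of the chromosome, 10.2% were called lower and 6.64% higher, compared with 6.87% and 7.30% of genes on other chromosomes. At 20 to 30 Mb from Rps2, 11 of 79 genes were called lower. Sequence of the 129/Sv donor linked to Rps2 and the genotype cannot be told apart here. Mrps34, the family gene left out, starts 173.2 kb beyond Rps2 and averaged 70.6 ± 7.14 CPM in A226Y (n = 10), beside 81.3 ± 6.43 CPM for WT (n = 8), a log2 fold change of -0.20 with an adjusted p of 0.0397 by edgeR. Its exons share 763 bases with Nme3 and 1309 with Mapk8ip3.

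Members were often arranged head to head with another protein-coding gene. The start of a gene on the opposite strand lay within 1000 bases for 32 of 76 members (42.1%), compared with 15.6% of the tested protein-coding genes. Among the 29 partners outside the family that were tested, 2 were called higher and 0 lower, beside 7.27% and 7.03% of all genes tested. These were Rab6a, a Golgi GTPase paired with Mrpl48 (log2 fold change 0.29, adjusted p of 0.00296 by edgeR), and Pnpla7, a lysophospholipase paired with Mrpl41 (0.44, adjusted p of 0.0164 by edgeR). Mrpl48, which shares 708 exon bases with Rab6a, had a log2 fold change of 0.00 and Mrpl41 one of -0.22. Mrps11 and Mrpl46 are each other's partner and had -0.20 and -0.11, while sharing 173 exon bases. Member and partner had log2 fold changes of the same sign in 16 of the 29 pairs.

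Promoter windows of 250 bases before to 50 bases after the start were given by RefSeq (GRCm38) for 68 members. The motifs searched on both strands were CCGGAAG, the core bound by ETS factors such as GABPA, GCGCATGCG, the core bound by NRF1, and AAGATGGCG, the core bound by YY1, of which the NRF1 core overlaps its own reverse complement and the ETS and YY1 cores can share the letters AAG. The ETS core was in the windows of 25 members (36.8%), the NRF1 core of 7 (10.3%) and the YY1 core of 8 (11.8%). Over the promoters of all 27025 genes in the table the shares were 9.93%, 1.95% and 1.64%, and over those of tested genes 19.0%, 3.92% and 3.399%. The median log2 fold change was -0.01 with and -0.04 without an ETS core, 0.00 with and -0.03 without an NRF1 core, and -0.09 with and -0.03 without a YY1 core. Mrps21 held an ETS core and Mrpl14 none of the 3 motifs, and the whole window of Mrpl14 lay in annotated exons. A match is a run of letters and no measured binding.

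The following stretches show what matches to the 3 motifs look like, in the called Mrps21 and in 3 members picked by hand from those lower at an unadjusted p under 0.05 (motif letters in capitals, 5′ to 3′ in the direction of the gene). They are Mrps21 (chr3:95871480-95871506, minus strand, the called member), Mrpl3 (chr9:105053239-105053265, plus strand), Mrpl9 (chr3:94443298-94443326, plus strand) and Mrps11 (chr7:78783013-78783041, plus strand).
Mrps21, ETS core on the reverse strand: gtagcttccgCTTCCGGtccgcagaga
Mrpl3, ETS core: gagaaacggaCCGGAAGtggcccggct
Mrpl9, NRF1 core: aggcgcagctGCGCATGCGcggggtcctt
Mrps11, YY1 core on the reverse strand: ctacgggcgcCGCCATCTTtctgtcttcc
The match began 19 bases after the start in Mrps21, 19 bases before it in Mrpl3, 28 bases before it in Mrpl9, and farther upstream in Mrps11. Since these 4 were picked among members with values below 0, their direction says nothing of the motifs. Other members with a motif had values above 0, such as Mrps18b with ETS and NRF1 cores (0.16) and Mrps33 with an ETS core (0.09).

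The stretch between the starts of a head-to-head pair is shown whole for 3 pairs, chosen because each joins a member to a gene of a different translation role or holds a motif. They lie at chr7:28741821-28741991 (minus strand, Mrps12 and Sars2, which encodes the mitochondrial seryl-tRNA synthetase), chr11:97041408-97041559 (plus strand, Mrpl10 and Lrrc46, with an NRF1 core on the reverse strand in capitals) and chr19:6057786-6057843 (minus strand, Mrpl49 and Fau, which encodes a cytosolic ribosomal protein).
Mrps12 to Sars2: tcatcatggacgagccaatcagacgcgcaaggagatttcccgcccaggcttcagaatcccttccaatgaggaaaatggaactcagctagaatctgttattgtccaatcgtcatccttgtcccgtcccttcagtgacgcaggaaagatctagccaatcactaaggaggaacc
Mrpl10 to Lrrc46: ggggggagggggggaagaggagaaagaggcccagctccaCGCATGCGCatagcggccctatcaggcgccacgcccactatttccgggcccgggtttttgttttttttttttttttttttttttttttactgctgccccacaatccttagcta
Mrpl49 to Fau: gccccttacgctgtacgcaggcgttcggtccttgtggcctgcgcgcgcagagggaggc
None of these 6 genes passed the test. The log2 fold changes were -0.14 for Mrps12 and 0.06 for Sars2, 0.00 for Mrpl10 and -0.06 for Lrrc46, and -0.10 for Mrpl49 and -0.04 for Fau.

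The remaining genes of mitochondrial translation were described by lists. Of 5 mitoribosome subunits under other names, 0 were called. Dap3, Chchd1 and Gadd45gip1 had log2 fold changes of -0.13, -0.13 and -0.13, Aurkaip1 had -0.06 and Ptcd3 had 0.05. Of 32 mitoribosome assembly genes, 4 were called lower (12.5%, beside 7.03% of all genes tested) and 0 higher (beside 7.27%), with a median of -0.02. These were Mterf4, which guides a methyltransferase to the large subunit (13.6 ± 1.31 CPM in A226Y, n = 10, and 16.1 CPM in WT, n = 8, log2 fold change -0.24), Rpusd4, a pseudouridine synthase of the large-subunit RNA (-0.32), Mettl17, a small-subunit assembly factor (-0.33), and Noa1, a GTPase (-0.32). Adjusted p-values of the 4 by edgeR ran from 0.0179 to 0.0291, and Mterf4 shares 1855 exon bases with Sned1 on the opposite strand.

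Rpusd4 ran from 4.47 through a median of 6.07 to 7.38 CPM in A226Y and from 6.82 through 7.29 to 9.43 CPM in WT mice, with 9 of 10 A226Y mice below all WT mice. Of the 16 translation factors tested, Tufm, the mitochondrial elongation factor Tu that brings charged tRNA to the ribosome, was called lower (1 of 16, beside 7.03% of all genes tested). It ran from 7.70 through a median of 8.40 to 9.37 CPM in A226Y and from 8.99 through 10.1 to 13.4 CPM in the WT group. The log2 fold change was -0.30 with an adjusted p of 0.0130 by edgeR. Its exchange factor Tsfm had -0.18 with an adjusted p of 0.0679 by edgeR. Of 20 genes of mitochondrial tRNA charging, Gatb, a subunit of the amidotransferase that forms Gln-tRNA, was called lower (log2 fold change -0.39, adjusted p of 0.0370 by edgeR), which makes 5% of the list beside 7.03% of all genes tested. At an unadjusted p under 0.05, 8 genes (40%) were lower and 0 higher, beside 14.7% and 14.9% of all genes tested. The median of the tRNA charging genes was -0.12.

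**Figure D5:**
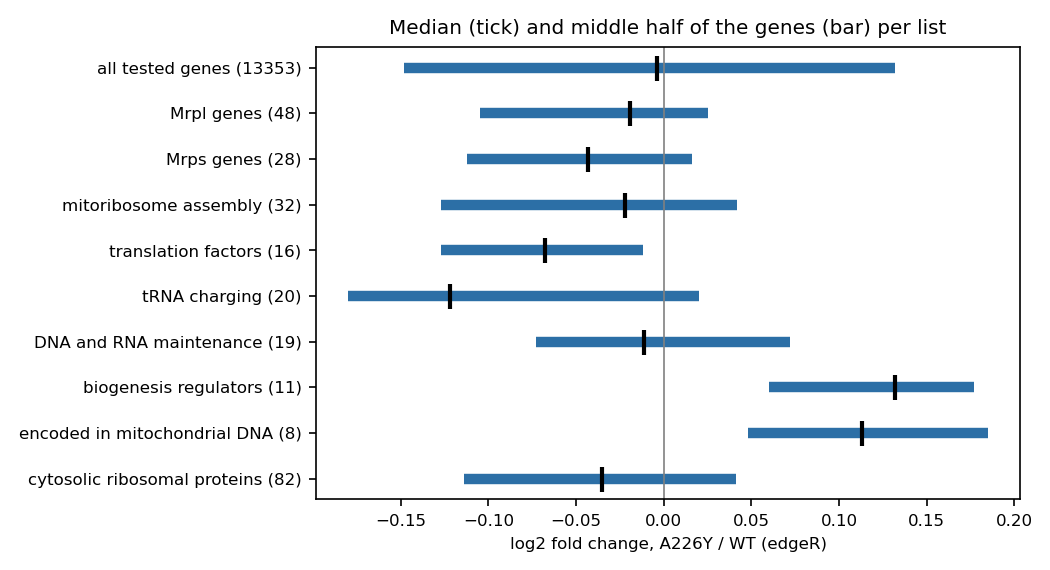
Log2 fold changes, A226Y over WT (horizontal axis, edgeR), of all tested genes and of lists of genes, with the number tested in parentheses, a black tick for the median and a blue bar for the interquartile range. The Mrpl and Mrps bars lie around medians of -0.02 and -0.04, with a narrower range than all tested genes.

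Genes of mitochondrial DNA and RNA maintenance had a median of -0.01, with 1 of 19 called lower (5.26%, beside 7.03% of all genes tested). That gene was Tefm, the elongation factor of the mitochondrial RNA polymerase (-0.27, adjusted p of 0.0248 by edgeR). The cytosolic ribosomal protein genes had a median of -0.04, with 3 of 82 tested called lower (3.66%, beside the same 7.03%) and 0 higher (beside 7.27%), and the targeted Rps2 was the lowest at -0.73. No member of the mitochondrial set had groups that did not overlap, although Mrps27 had 8 of 10 A226Y mice below all WT mice (log2 fold change -0.15, adjusted p of 0.17 by edgeR). Every A226Y mouse was below every WT mouse for 0.285% of all genes tested and above every WT mouse for 0.352%.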

How the data were processed

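RNA was extracted from frozen liver with Trizol and sequenced as single 50-base Illumina reads. The deposited counts per Ensembl gene are whole numbers that were not normalized. The submitters' processing notes name bcl2fastq, fastp, STAR, featureCounts and GRCm38, whereas the study's methods name RSEM and another build, so the counter and its use of strand are uncertain. Symbols, positions, lengths and GC content were taken from GENCODE M21 (GRCm38), which matched 22291 identifiers and left 233 unmatched. Groups came from the sample titles, with 10 A226Y and 8 WT mice. As in the study's filter, genes needed at least 10 counts in 50% of the samples of one genotype. A226Y was compared with WT by edgeR 4.0.16 (TMM, quasi-likelihood test) in R 4.3.3, and CPM used the same scaling. SE was the absolute log2 fold change divided by the square root of F. Promoter sequences are RefSeq's. Named genes were members called, the extremes of level and of fold change, members on the chromosome of Rps2, Mrps30, Mrps18a and Mrps36, subunits with other names and called genes of the lists. Other members and partner genes, Mrpl44 and Mrps5 among them, and the grouping by role were chosen after their values were seen. The members and lists were chosen with earlier results of these data known. The tests were tried on simulated counts first. The alternatives were other scalings, filters and tools (DESeq2 1.42.0, limma-voom 3.58.1, sva 3.50.0), offsets for length and GC, and each mouse left out. No pair of mice agreed within sampling noise (chi-square per degree of freedom at least 19.8). Depth limits the 3 members under 10 CPM, which had as few as 8 counts in a mouse.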

Additional observations from a re-analysis of the deposited data

Results flagged for a closer look

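Among 64 checks of a single mouse against the rest of its group, over part of the members named above and the summed levels, 8 found a mouse that stood apart by Dixon's ratio. Chance gives about 1 in 20 for a single check. The checks reuse the same mice and are not independent, so the 8 are not separate findings. A226Y mouse 23, which had 62126131 counts, was the highest of its group in 6 of the 8. Its values were 27.0 CPM for Mrps21 (the other 9 mice from 15.2 to 21.4), 55.7 CPM for Mrpl52 (28.7 to 37.8), 159 CPM for Mrpl12 (113 to 137), 50 CPM for Mrpl16 (27.97 to 38.2), 46.9 CPM for Mrpl28 (32.8 to 38.3) and 31.7 CPM for Mrps30 (24.4 to 28.3). WT mouse 24 had 75.2 CPM for Mrpl9 (52.1 to 61.9 in the other 7 WT mice). A226Y mouse 15 had 19.8 CPM for Mrpl46 (16.03 to 18 in the other 9). The part of depth in these values was not tested.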

How the results depend on the processing

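No paired analysis was possible because the animal numbers are not shared between the groups. The number of members called lower was 2 as reported and 1 with library size only, without a filter beyond 1 count, with limma-voom, with the length offset and with 4 surrogate variables. It was 3 with upper-quartile scaling, with 10 counts asked of every mouse and with DESeq2, and 2 with RLE size factors and with the GC offset. It ran from 1 to 7 with a mouse left out, beside 622 to 1372 of all genes. It was 7 without the 3 libraries that stand apart, beside 1185 of 13276 genes. Members called higher were 0 as reported, 1 with the length offset (beside 788 of all genes), and 0 to 1 with a mouse left out (beside 633 to 1268). Of all 13353 genes, 939 were called lower as reported, 660 with library size only, 918 with limma-voom, 793 with the length offset and 21 with 4 surrogate variables. Upper-quartile scaling gave 985, DESeq2 1171, RLE size factors 903 and the GC offset 803. The number was 807 of 17889 without a filter beyond 1 count and 928 of 12235 with 10 counts asked of every mouse. Genes called in all were 1910 as reported, 50 with 4 surrogate variables, and 1255 to 2560 with a mouse left out. Of the 1910, 50.8% were higher, compared with 67.9% of 2059 with library size only. The median log2 fold change of all members, -0.03 as reported, ran from -0.057 to 0.01 over the other settings and from -0.052 to -0.014 with a mouse left out. That of Mrpl genes, -0.019 as reported, ran from -0.049 to 0.021, and that of Mrps genes, -0.043 as reported, from -0.069 to -0.003. Over the single members named, 799 comparisons kept their side of the threshold, 19 lost a call and 22 gained one. No called value changed sign. The causes of these changes were not tested. Members under 10 CPM (Mrpl23, Mrps33 and Mrps36) were measured with intervals of up to ± 0.35 on the log2 scale.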

Other observations

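Regulators of mitochondrial biogenesis were described by the same counts. Of the 11 tested, 1 was called higher (9.09%, beside 7.27% of all genes tested) and 0 lower, 10 had a log2 fold change above 0 (Nrf1 only just, at 0.00), beside 6549 of 13353 genes tested, and the median was 0.13. The called gene was Ppargc1a, the coactivator PGC-1alpha, which is induced in liver by fasting. It ran from 14.4 through a median of 19.2 to 30.2 CPM in A226Y and from 9.67 through 12.7 to 19.7 CPM in the WT group. The log2 fold change was 0.74 ± 0.16 (SE) with an adjusted p of 0.00539 by edgeR. Its partners in the control of mitochondrial genes had smaller values, none of which passed the test. Gabpa had 0.07, Nrf1 0.00 and Esrra -0.05.

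Of 13 respiratory subunits encoded in mitochondrial DNA, 8 were tested, and the other 5 had at most 3 counts in any mouse. For comparison, mt-Cytb averaged 9062 CPM in A226Y and 8672 CPM in WT mice. Whether reads of the 5 genes were lost in counting was not tested, so these counts do not show that the transcripts were absent. None of the 8 was called. Their median was 0.11 with 7 above 0, beside 6549 of all 13353 genes tested. The largest value, 0.23 for mt-Nd3, came from low means of 5.20 CPM in A226Y and 4.45 CPM in WT mice. Of the 8, 2 (25%) were higher at an unadjusted p under 0.05, beside 14.9% of all genes tested. These were mt-Nd5 (0.23) and mt-Nd6 (0.17), with adjusted p-values of 0.134 and 0.163 by edgeR. mt-Co1 averaged 10190 ± 1842 CPM in A226Y (SD, n = 10) with a log2 fold change of 0.00.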
